A study of Homo sapiens with 8 samples.

Results

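The cytosolic and mitochondrial chaperone genes were examined in 2 acute myeloid leukaemia lines with and without a METTL14 knockdown. Members were taken by name: the HSPA, HSPB, HSPD, HSPE and HSPH genes, the HSP90A genes, all DNAJ genes, CCT2 to CCT8 and the BAG genes, without 6 genes of the endoplasmic reticulum (HSPA5, HSPA13, DNAJB9, DNAJB11, DNAJC3 and DNAJC10). The rule found 81 of 16726 listed genes, and it used no measured value. Of these, 74 are protein-coding, 4 are pseudogenes (CCT6P1, CCT6P3, HSPA7, HSP90AB4P) and 3 are antisense RNAs (DNAJC27-AS1, DNAJC3-AS1, DNAJC9-AS1).

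Poly(A) RNA was sequenced from NB4 and MM6 (MonoMac 6), established human leukaemia lines that the labels both call acute monocytic leukemia. The 4 groups were NB4 with the control hairpin shNS, NB4 with the METTL14 hairpin shM14-#2, MM6 with shNS and MM6 with shM14-#2, 2 libraries each. METTL14 is a subunit of the enzyme complex that writes N6-methyladenosine on RNA, and the design asks which transcripts change when it is lowered. All cells, controls included, had been transduced with a pLKO.1 lentivirus and kept in 0.5 µg/mL puromycin for 2 passages. One METTL14 hairpin was used, without a rescue among the samples, and the labels do not say whether libraries of a group came from separate cultures, so the p-values rest on the spread among libraries, which may be technical.

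Chaperones bind unfolded or partly folded proteins and keep them from aggregating. HSP70 proteins cycle between ATP-bound and ADP-bound states on their clients: J proteins (DNAJ) deliver clients and speed up ATP hydrolysis, while BAG and HSP110 proteins release the nucleotide. HSP90 matures kinases and hormone receptors, the ring-shaped CCT complex folds actin and tubulin, and HSPD1 with its lid HSPE1 folds proteins inside mitochondria. Part of the family is transcribed at all times, and part is switched on by heat shock factor 1 (HSF1) through heat shock elements, inverted repeats of GAA units in promoters.

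The elements are shown here because the genes that carry them are among those described next. In RefSeq promoter windows (GRCh38.p14, 250 bases before to 50 after the start), 69 of the 81 members matched by gene. The 3-unit element, searched on both strands as GAANNTTCNNGAA or TTCNNGAANNTTC, was in the windows of 7 of these 69 members (10.1%), against 0.608% of 27305 genes. The shorter GAANNTTC, which is part of it, was in 26.1% of members and 8.21% of genes, and TTCNNGAA in 20.3% and 9.46%. The 7 members were HSPA6, HSPD1, HSP90AB1, DNAJB6, HSPA8, HSP90AA1 and DNAJA1. Capitals mark the element, and each sequence reads 5′ to 3′ on the gene's strand.
HSPA6: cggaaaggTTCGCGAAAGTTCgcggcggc
HSPD1: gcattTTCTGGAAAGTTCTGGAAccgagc
HSP90AB1: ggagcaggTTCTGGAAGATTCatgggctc
DNAJB6: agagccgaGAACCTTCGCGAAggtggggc
HSPA8: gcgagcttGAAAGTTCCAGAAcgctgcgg
HSP90AA1: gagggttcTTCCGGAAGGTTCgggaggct
These lie at chr1:161524458-161524486 (plus strand), chr2:197500062-197500090 (minus), chr6:44247770-44247798 (plus), chr7:157336865-157336893 (plus), chr11:123062346-123062374 (minus) and chr14:102087112-102087140 (minus), in the same order. The printed stretches of HSPD1, HSPA8 and HSP90AA1 overlap annotated exons of those genes in GENCODE release 29, and that of HSPD1 also an exon of HSPE1. A match describes these letters only, and no binding was measured.

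The 8 libraries held 23272126 to 28814911 reads over the listed genes, and the 81 members made up 1.02% to 1.27% of the RPKM of a library. RPKM is reads per kilobase of gene model and per 1000000 reads assigned to genes. METTL14 had 14.1 and 12.5 RPKM in NB4 controls and 8.35 in each NB4 knockdown library, a log2 change of -0.61 (SE 0.07, limma adjusted p = 0.0024). In MM6 it had 12.5 and 13.4 RPKM in controls and 6.54 and 6.55 with the hairpin, a log2 change of -0.88 (SE 0.13, limma adjusted p = 0.088) that did not pass the threshold of 0.05. By the authors' deposited table METTL14 had a log2 fold change of -0.64 in NB4 and -0.94 in MM6, both at an adjusted p under 0.05. Of 10 monocyte markers, 7 were lower in the controls of NB4, which is known as a promyelocytic line, than in those of MM6. CX3CR1 overlapped between them. CSF1R (3.96 and 4.34 RPKM in NB4 against 1.29 and 1.43 in MM6) and ITGAM (5.49 and 4.98 against 3.05 and 2.49) were higher in NB4. In NB4 the 10 monocyte markers summed to 33.2 and 37.4 RPKM in controls and to 111 and 115 with the hairpin, and 6 of the 7 tested were higher. In MM6 they summed to 15454 and 10138 RPKM in controls and to 26268 and 16215 with the hairpin; none passed in MM6 alone, and 8 of 10 were higher over both lines. The 5 promyelocyte markers summed to 2567 and 2666 RPKM in NB4 controls and to 2318 and 2361 with the hairpin, with 3 lower and 1 higher, and to 4368 to 5021 RPKM in MM6. MPO made up most of the NB4 sums, at 2400 and 2490 RPKM in controls. In NB4 CTSG went from 41.9 and 44.9 to 6.73 and 6.85 RPKM, and PRTN3 from 46.1 and 44.1 to 127 and 129. Between the controls MPO was higher in NB4, and the other 4 were higher in MM6. Of 8 genes of other cell types, CD3E, MS4A1 and HBG1 are not among the listed genes and the other 5 summed to 11.6 to 26.1 RPKM. The MM6 replicates stood apart: 10 immediate early genes summed to 2374 and 2316 RPKM in the first control and knockdown libraries and to 493 and 693 in the second, against 184 to 223 in NB4.

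Levels of the members covered the whole range of the data. In the highest of the 8 libraries, 12 members stayed under 1 RPKM, 24 reached 1 to 10, 29 reached 10 to 100 and 16 reached at least 100 RPKM. HSP90AB1, the constitutive cytosolic HSP90, was at 633 to 817 RPKM, and HSPA8, the constitutive cytosolic HSP70, at 389 to 590 RPKM. HSPD1 was at 309 to 627 RPKM and HSP90AA1, the stress-inducible HSP90, at 293 to 453 RPKM. The inducible HSP70 genes were far lower on this scale, HSPA1A at 0.237 to 0.709 RPKM and HSPA1B at 1.34 to 3.44 RPKM, but their values are uncertain. Their deposited gene models span 12.1 and 12.6 kb, 4.89 and 4.999 times the exons of GENCODE release 29, and 72.6% and 71.4% of their 50-base stretches also occur at other loci, mainly in each other. HSPA1L and BAG6 have models 4.99 and 6.29 times their exons, so levels of these 4 genes cannot be set beside those of other genes. Comparisons of a gene between libraries keep the same model length throughout.

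**Figure D1:**
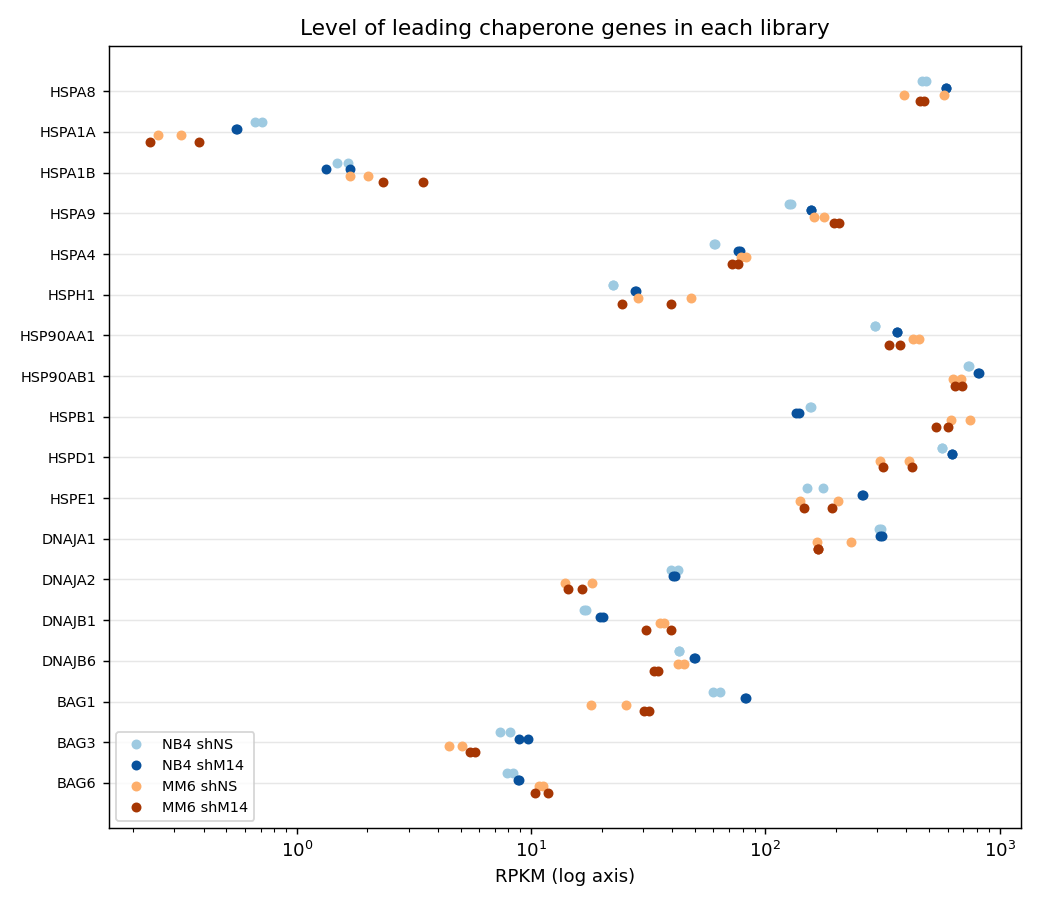
RPKM (log axis) of 18 leading chaperone genes; each point is 1 library, coloured by cell line and hairpin. HSPA8 stays between 389 and 590 RPKM in all 8 libraries, HSPA1A stays under 1 RPKM, and HSPB1 is higher in every MM6 library than in every NB4 library.

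In NB4, abundant chaperones were among those higher with the METTL14 hairpin, HSPA8, HSP90AA1, HSPA9, HSPE1 and CCT2 among them, and DNAJC12, DNAJC4, DNAJB4, DNAJB2 and HSPB1 were among those lower. The filter of 1 RPKM in at least 2 fitted libraries left 64 members; 20 were higher (31.2%, against 22.1% of all 11531 genes tested) and 12 lower (18.8%, against 25.2%). The median change of the 64 was 0.03 in log2(RPKM + 1), and -0.01 over all genes. Changes are shM14 minus shNS on that scale, which understates the change of low genes, and adjusted p-values are from limma with Benjamini-Hochberg adjustment over all genes tested. Among members with a mean of at least 100 RPKM 9 of 15 were higher and 1 lower (60.0% higher, against 38.9% of all genes as abundant), and among those under 10 RPKM 4 of 26 were higher and 8 lower (15.4% and 30.8%, against 15.5% and 31.1%), which is the share of all genes as rare. The part of the monocyte and promyelocyte markers that moved with the hairpin, given above, in these changes was not tested. One of the lower calls, DNAJC3-AS1, reached the filter through the control libraries alone and is counted but given no test. Less RNA per cell and fewer cells making it cannot be told apart in these bulk samples. Fewer members were called in either direction when any NB4 library was left out. The counts over all genes dropped in these fits as well. With the spread estimated over all 8 libraries, 1 of 67 members was higher (HSPA4) and 5 lower (CCT6B, DNAJB2, DNAJC4, DNAJC17 and DNAJC12). Of all 12804 genes in that fit, 713 were higher and 945 lower.

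Among the HSP70 genes and their HSP110 exchange factors, HSPA8, HSPA9, HSPA4 and HSPH1 rose. HSPA8 had 466 and 484 RPKM in NB4 controls and 590 and 589 RPKM with the hairpin, so the groups did not overlap. Its mean was 24.1% higher, a log2 change of 0.31 (SE 0.05, limma adjusted p = 0.0061). HSPA9 (mortalin), the HSP70 of mitochondria that pulls proteins through the inner membrane, went from 126 and 128 to 156 and 157 RPKM (0.30, SE 0.04). HSPA4, an HSP110 protein that recharges HSP70, had 60.5 and 61.1 RPKM in controls and 77.9 and 76.7 RPKM with the hairpin (0.34, SE 0.04). Its relative HSPH1 went from 22.5 in each control to 27.7 and 28.0 RPKM (0.30, SE 0.04). The third HSP110 gene, HSPA4L, had 6.28 and 7.16 RPKM in controls and 5.75 and 5.51 RPKM with the hairpin and did not pass (limma adjusted p = 0.052). HSPA1B had 1.49 and 1.65 against 1.34 and 1.69 RPKM, overlapping groups. HSPA14, an HSP70 relative at the ribosome, had a change of 0.13 that did not pass (limma adjusted p = 0.065), and HSPA1A with HSPA6, HSPA2, HSPA12B and HSPA1L were under the filter. HSPA1A, uncertain as given above, had 0.665 and 0.709 RPKM in controls and 0.556 and 0.551 with the hairpin. By the authors' deposited table HSPA1A (log2 fold change -0.28) and HSPA2 (-0.89) were lower in NB4 at an adjusted p under 0.05. HSPA6, HSPA12B and HSPA1L did not pass there.

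Both cytosolic HSP90 genes were higher in NB4. HSP90AA1 had 294 and 293 RPKM in controls and 364 in each knockdown library, a change of 0.31 (SE 0.04, limma adjusted p = 0.0051). HSP90AB1 went from 735 and 739 to 817 and 809 RPKM, and at 0.14 (SE 0.04, limma adjusted p = 0.0496) it only just passed. The call of HSP90AB1 was lost whichever NB4 library was left out. HSP90AA1 stood at 0.40 of the HSP90AB1 level in both controls and at 0.45 in both knockdown libraries.

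The largest rise among the members called in NB4 was that of HSPE1, the lid of the mitochondrial chaperonin. HSPE1 had 176 and 150 RPKM in NB4 controls and 258 and 261 RPKM with the hairpin, 58.7% more on average and a change of 0.67 (SE 0.08, limma adjusted p = 0.0036). Its partner HSPD1, the barrel, had 567 and 568 RPKM in controls and 627 and 624 RPKM with the hairpin, and at 0.14 (SE 0.04) its adjusted p in limma was 0.0500009, just short of the threshold. The pair is transcribed head to head on chromosome 2, with RefSeq start sites at positions 197500274 and 197499840 for HSPD1, 105 and 539 bases from the HSPE1 start at 197500379. The printed HSPD1 element lies between the HSPD1 starts, so of these it is upstream of the start at 197499840 alone. The element also lies on the upstream side of the HSPE1 start, but beyond the promoter window searched for HSPE1. The HSPE1 level was 0.31 and 0.26 of that of HSPD1 in controls and 0.41 and 0.42 with the hairpin. Copies of both exist elsewhere in the genome: 17.8% of the 50-base stretches of HSPE1 and 24.8% of those of HSPD1 are found at other loci. Of the 9 mitochondrial members, HSPA9 and HSPE1 rose, none fell and 7 did not pass, among them the J protein DNAJA3 and the import motor subunit DNAJC19; the share that rose is close to the 22.1% of all genes.

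Of the CCT ring, CCT2, CCT3, CCT5 and CCT7 rose in NB4. CCT3 went from 124 and 121 to 154 in each knockdown library (0.33, SE 0.05, limma adjusted p = 0.0047), and CCT2 from 203 and 204 to 243 and 240 RPKM (0.25, SE 0.04). CCT5 (0.23, SE 0.04) and CCT7 (0.20, SE 0.05) gave smaller rises, and CCT4 (0.09) and CCT8 (0.00) did not pass. CCT6A had the opposite sign, with 182 and 178 RPKM in controls and 164 and 162 RPKM with the hairpin (-0.14, SE 0.05, limma adjusted p = 0.052, not passed). Relative to the mean of the other 6 subunits CCT6A stood at 1.005 and 0.961 in controls and at 0.78 in both knockdown libraries. The same ratio in MM6 was 1.14 and 1.13 in controls and 0.84 and 0.87 with the hairpin, so the groups did not overlap in either line. TCP1, which encodes the remaining subunit and lies outside the naming rule, rose in NB4 by 0.29 (SE 0.05). The testis-type relative CCT6B and the pseudogenes CCT6P1 and CCT6P3 fell by 0.41, 0.41 and 0.38, and CCT6P1 shares 47.6% of its 50-base stretches with other loci, mainly CCT6P3 and CCT6A.

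**Figure D2:**
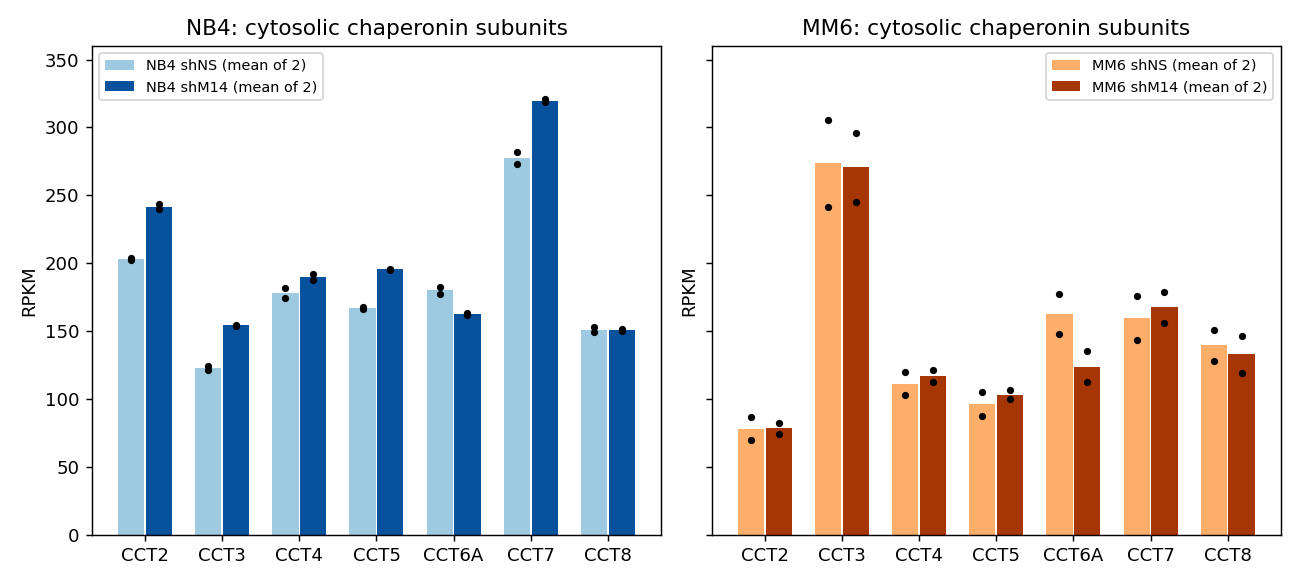
RPKM of the 7 CCT subunit genes in NB4 (left) and MM6 (right); bars are means of 2 libraries and dots are single libraries. In NB4 the knockdown dots of CCT2, CCT3, CCT5 and CCT7 lie above the control dots and those of CCT6A below, and in MM6 CCT3 is the most abundant subunit.

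None of the 3 tested DNAJA genes passed in NB4: DNAJA1, the main cytosolic partner of HSPA8, had 312 and 306 RPKM in controls and 316 and 307 RPKM with the hairpin, and DNAJA2 and DNAJA3 had changes of -0.00 and -0.08. All 7 tested DNAJB genes passed, 4 upward and 3 downward (against 22.1% and 25.2% of all genes), but the calls of DNAJB1, DNAJB6, DNAJB12 and DNAJB14 were each lost without either NB4 knockdown library. No test compared the classes. DNAJB5 rose most, from 4.33 and 4.10 to 6.15 and 7.21 RPKM (0.56, SE 0.08, limma adjusted p = 0.0051). DNAJB1, the classical heat-inducible partner of HSP70, went from 16.8 and 17.2 to 20.3 and 19.6 RPKM (0.22, SE 0.05), and DNAJB6, which keeps polyglutamine proteins soluble, from 42.9 and 42.8 to 49.8 and 49.5 RPKM (0.21, SE 0.04). DNAJB12, a J protein of the endoplasmic reticulum membrane, rose by 0.22, while its paralog DNAJB14 fell by 0.30. DNAJB4 fell from 4.58 and 4.09 to 2.97 and 3.01 RPKM (-0.42, SE 0.06). DNAJB2, a J protein with ubiquitin-interacting motifs that hands clients to the proteasome, fell from 2.67 and 2.49 to 1.79 and 1.73 RPKM (-0.37, SE 0.05, limma adjusted p = 0.0043).

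The DNAJC class, whose members share the J domain and little else, had 24 of 29 genes tested, with 2 higher, 5 lower and 17 not passed (against 22.1% and 25.2% of all genes). DNAJC12, a partner of the aromatic amino acid hydroxylases, had the largest fall on this scale, from 26.2 and 24.7 to 17.7 and 16.9 RPKM (-0.53, SE 0.05, limma adjusted p = 0.0020). DNAJC4 (-0.46), DNAJC17 (-0.36), a protein of the nucleus linked to splicing, and DNAJC1 (-0.21) of the endoplasmic reticulum membrane also fell. The antisense RNA DNAJC3-AS1 had 1.24 and 1.71 RPKM in controls and 0.849 and 0.860 with the hairpin. Whether any reads of DNAJC3 were counted for DNAJC3-AS1 was not tested. The mean RPKM of DNAJC3-AS1 fell by 41.9%, and that of DNAJC12 fell by 32.0%. DNAJC5 (cysteine string protein), a palmitoylated J protein of vesicles, rose from 19.4 and 21.7 to 24.9 in each knockdown library (0.27, SE 0.06). DNAJC9, a J protein that also binds histones, rose by 0.19.

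Among BAG genes 3 of 6 rose and none fell, against 22.1% and 25.2% of all genes. BAG1, which binds the HSP70 ATPase domain and the proteasome, had 59.6 and 64.1 RPKM in controls and 83.1 and 82.1 RPKM with the hairpin (0.41, SE 0.05, limma adjusted p = 0.0042). BAG4, known as the silencer of death domains, rose by 0.28 and BAG3, which routes clients to autophagy, by 0.24. BAG6, a holdase for tail-anchored proteins, had a change of 0.10 that did not pass. The small heat shock protein HSPB1 (HSP27) fell from 156 and 155 to 135 and 139 RPKM (-0.18, SE 0.05, limma adjusted p = 0.029), the one member of at least 100 RPKM to fall in NB4. HSPB11, named for this family but known as a protein of ciliary transport, had overlapping groups, and HSPB6, HSPB7 and HSPB9 were under the filter.

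Of all 32 NB4 calls, 16 held whichever NB4 library was left out: HSPA8, HSPA9, HSPA4, HSPH1, HSP90AA1, HSPE1, CCT3, DNAJB5 and BAG1 upward and CCT6B, CCT6P1, DNAJB2, DNAJB4, DNAJC4, DNAJC12 and DNAJC17 downward. Leaving out a knockdown library lost 15 calls (first) or 16 (second), CCT2, CCT5, CCT7, DNAJB1, DNAJB6, DNAJB12, DNAJC5, BAG3, BAG4 and HSPB1 among both sets. Leaving out a control library lost 7 (first) or 4 (second). The 17 heat-inducible members counted 8 higher and 2 lower of 14 tested, against 22.1% and 25.2% of all genes. Of the carriers of a 3-unit heat shock element, HSPA8, HSP90AA1, HSP90AB1 and DNAJB6 were higher, HSPD1 and DNAJA1 did not pass and HSPA6 was under the filter. By the authors' deposited table, 27 of the 81 members were higher at an adjusted p under 0.05 and 16 lower (33.3% and 19.8%), against 22.1% and 21.5% of all genes. The log2 fold changes in the authors' deposited table were 0.34 for HSPA8, 0.70 for HSPE1, 0.17 for HSPD1 and -0.12 for CCT6A, all past that threshold.

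**Figure D3:**
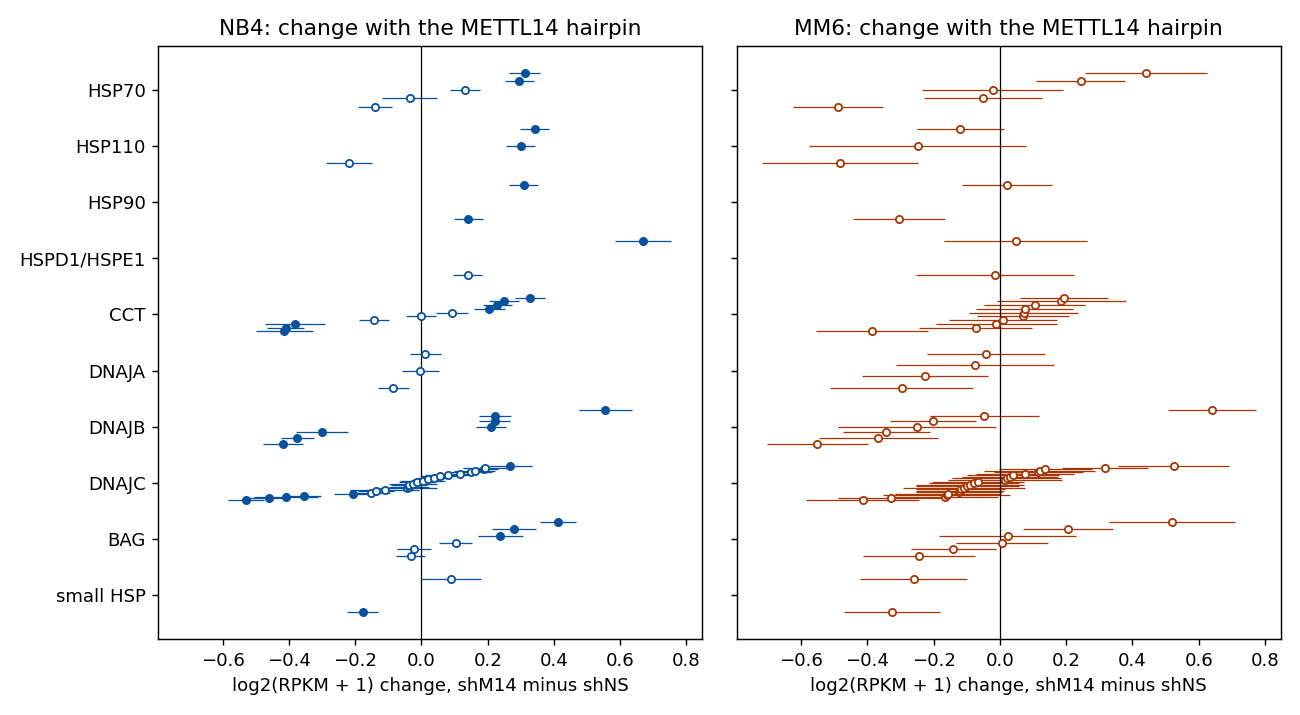
Change in log2(RPKM + 1), shM14 minus shNS, of every tested member by class in NB4 (left) and MM6 (right); points are limma estimates from 2 against 2 libraries, bars are standard errors, and filled points passed an adjusted p of 0.05. In NB4 20 filled points lie right of 0 and 12 left, and in MM6 none of the 64 is filled.

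In MM6 no member passed in either direction, against 0.0504% of 11895 genes higher and 0.0252% lower. At an unadjusted limma p under 0.05, 3 of 64 were higher and 3 lower (4.69% each), against 6.03% and 8.93% of all genes, and limma with voom weights on recovered reads also called 0 and 0. The control and knockdown values did not overlap in 9 members that were higher (14.1%, against 19.0% of all genes) and 18 that were lower (28.1%, against 25.8%). HSPA12B, which reached the filter through the control libraries alone, is counted in both lower sets. The median change was -0.06, and -0.03 over all genes. The MM6 replicates differed more than those of NB4: the members' median difference between the second and the first library was 0.14 in controls and 0.13 with the hairpin, 53 and 51 of 67 members being higher in the second. Of all genes 58.6% and 69.1% were higher in the second, with medians of 0.05 and 0.12, and the immediate early genes went the other way, as given above. The part of that difference in the MM6 result was not tested beyond the fit with the replicate number as a term, which is given in the closing section.

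HSPA8 shows the spread. It had 389 and 576 RPKM in MM6 controls and 459 and 474 RPKM with the hairpin, so the knockdown values lay between the control values (-0.02, SE 0.21). HSPE1 had 141 and 204 against 146 and 193 RPKM, again nested (-0.01, SE 0.24). HSPH1 had 28.5 and 48.3 against 24.4 and 39.5 RPKM, overlapping groups. Each HSPH1 knockdown value was nevertheless lower than that of the control library with the same number. HSP90AA1 had 427 and 453 RPKM in controls and 336 and 377 RPKM with the hairpin, without overlap and opposite in sign to NB4 (-0.30, SE 0.14, limma adjusted p = 0.39). HSPA9 had 162 and 178 against 206 and 197 RPKM, without overlap and with the sign seen in NB4 (0.24, SE 0.14, limma adjusted p = 0.49). HSPA1B, subject to the limits above, had 1.68 and 2.01 RPKM in controls and 3.44 and 2.34 RPKM with the hairpin (0.44, SE 0.18).

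The smallest p-value among MM6 members was that of DNAJB2, at 1.02 and 1.103 RPKM in controls and 2.34 and 2.09 RPKM with the hairpin; its reads numbered 103 and 122 in controls and 283 and 206 with the hairpin. This was 108% more on average, a change of 0.64 (SE 0.13, limma adjusted p = 0.15). DNAJC5 had 31.4 and 39.5 against 48.1 and 54.4 RPKM (0.52, SE 0.17) and BAG1 18.01 and 25.3 against 30.3 and 31.8 RPKM (0.52, SE 0.19). On the lower side, DNAJB4 had 10.9 and 11.2 RPKM in controls and 6.47 and 8.09 RPKM with the hairpin (-0.55, SE 0.15), and DNAJB6 45.0 and 42.3 against 33.5 and 34.9 RPKM (-0.34, SE 0.13). HSPA12B, a distant relative of HSP70, had 1.67 and 1.41 against 0.763 and 0.856 RPKM, and reached the filter through the control libraries alone, so no test is given. By the authors' deposited table, 1 member was higher in MM6 (DNAJB2, log2 fold change 1.102, adjusted p = 0.025) and 0 lower (1.23% and 0%), against 1.58% and 1.69% of all genes.

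Over both lines, the additive model called 3 of 67 members higher (4.48%, against 4.80% of 12804 genes) and 1 lower (1.49%, against 7.10%). BAG1 rose by 0.47 (SE 0.10, limma adjusted p = 0.027), DNAJC5 by 0.40 (SE 0.10, limma adjusted p = 0.039) and HSPA9 by 0.27 (SE 0.06, limma adjusted p = 0.033). DNAJB4 fell by 0.48 (SE 0.08, limma adjusted p = 0.011) and held its call in all 8 fits that left out a library. The DNAJC5 call was lost in all 8 (limma adjusted p = 0.051 to 0.11), and that of HSPA9 was lost with the replicate number as a block (limma adjusted p = 0.052). No member was called higher without any single NB4 library or without the first MM6 knockdown library, and BAG1 alone was without the first MM6 control library. Without the second MM6 knockdown library 3 members were called lower. Of the 20 members higher in NB4, 9 also had a positive change in MM6 (45.0%, against 68.4% of all genes higher in NB4), and of the 12 lower ones 4 had a negative change (33.3%, against 75.2%).

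The change differed between the lines for DNAJB2 and DNAJB6, each in its own direction. The MM6 change minus the NB4 change was 1.01 for DNAJB2 (SE 0.11, limma adjusted p = 0.012), which makes 1 of 67 members higher in MM6 (1.49%, against 1.53% of all genes). For DNAJB6 it was -0.55 (SE 0.11, limma adjusted p = 0.048), 1 of 67 lower (against 1.39%). Both calls were lost when any NB4 library was left out, and that of DNAJB6 also without either MM6 control library or the first MM6 knockdown library. Without the second MM6 control library 2 members were higher, and without the second MM6 knockdown library 3 were lower. Without an NB4 library the DNAJB2 difference was 0.98 to 1.05 and the adjusted p 0.11 to 0.12. HSP90AA1 (-0.61, SE 0.12, limma adjusted p = 0.054), HSPA4 (-0.46, limma adjusted p = 0.075) and CCT6B (0.61, limma adjusted p = 0.077) did not pass, nor did HSPE1 (-0.68, SE 0.29) or HSPA8 (-0.33, SE 0.24).

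**Figure D4:**
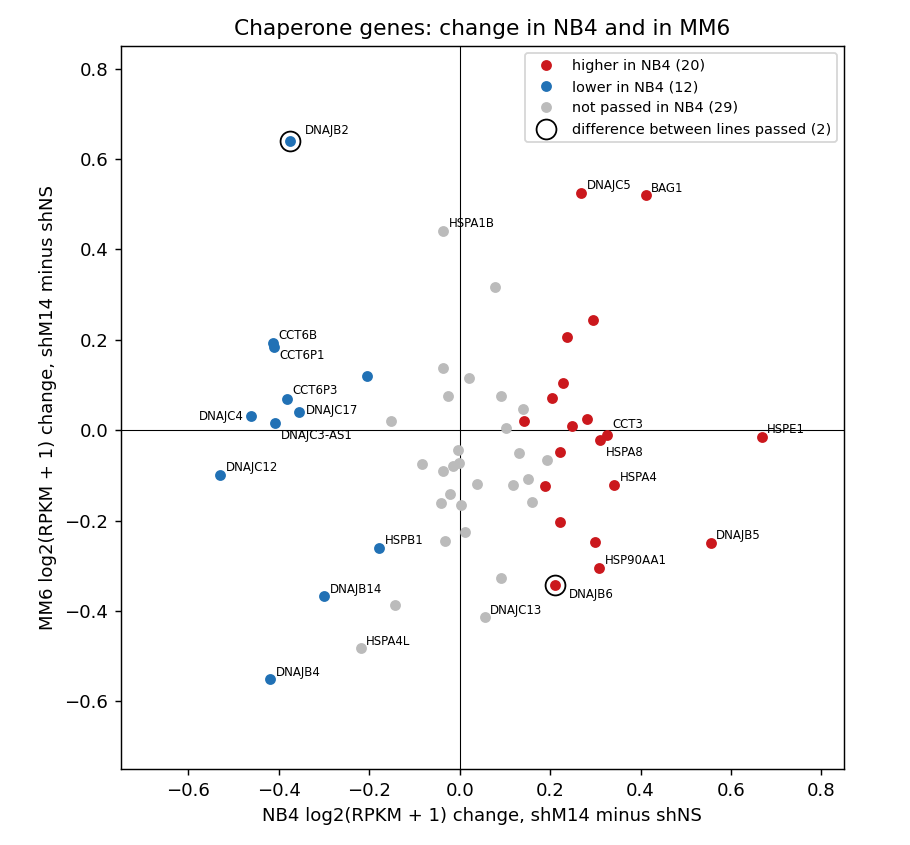
Change in log2(RPKM + 1) in NB4 (horizontal) and in MM6 (vertical) for the 61 members tested in both lines, coloured by the NB4 call; rings mark DNAJB2 and DNAJB6, whose difference between lines passed. DNAJB4 lies low on both axes, BAG1 and DNAJC5 high on both, and HSPE1 is far right at an MM6 change near 0.

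Chaperone RNA levels also differed between the lines, at shares near those of all genes. Between the control groups, 26 of 67 members were higher in MM6 (38.8%, against 34.3% of 12450 genes) and 21 lower (31.3%, against 36.8%). These fits share the NB4 and MM6 control libraries with the comparisons above, and line and library origin cannot be told apart. DNAJA4, a cytosolic J protein, had 0.195 and 0.306 RPKM in NB4 controls (16 and 31 reads) and 19.6 and 27.0 RPKM in MM6 controls. DNAJC6 (auxilin), which uncoats clathrin vesicles, had 0.0338 and 0.0988 RPKM in NB4 and 1.95 and 1.57 in MM6. DNAJA4, DNAJC6 and HSPA12B reached the filter through MM6 alone, and HSPA7 and DNAJC9-AS1 through NB4 alone, so these are counted among the calls but given no test; leaving out a library of that line takes them out of the fit. HSPB1 had 156 and 155 RPKM in NB4 and 619 and 748 in MM6, 4.39 times as much (2.12, SE 0.12, limma adjusted p = 1.2e-04). DNAJC1 (1.28), DNAJB4 (1.18), HSPA4L (1.17) and DNAJB1 (1.05) were also higher in MM6.

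On the lower side stood DNAJC12, with 26.2 and 24.7 RPKM in NB4 and 5.66 and 6.44 in MM6 (-1.91, SE 0.10), and BAG1, with 59.6 and 64.1 against 18.01 and 25.3 RPKM (-1.49, SE 0.17). The pseudogene HSPA7 had 167 and 215 reads in NB4 controls and 3 and 5 in MM6 controls, and shares 56.3% of its 50-base stretches with other loci, mainly HSPA6. HSPA8 did not differ beyond its spread (-0.00, SE 0.20), nor did HSPE1 (0.06, SE 0.20) or HSP90AB1 (-0.16, SE 0.09), while HSPD1 was lower in MM6 (-0.67, SE 0.15). The call of HSPD1 was lost without either NB4 control library.

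CCT subunits were ordered differently in the control libraries of each line. CCT3 was the only one of the 10 CCT genes higher in MM6 (1.14, SE 0.14, limma adjusted p = 0.0012). Lower were 7, against 34.3% of all genes higher and 36.8% lower. The 7 were the ring subunits CCT2, CCT4, CCT5 and CCT7, with CCT6B and the pseudogenes CCT6P1 and CCT6P3. CCT2 differed most among the lower ring subunits (-1.38, SE 0.13, limma adjusted p = 5.0e-04), and CCT6A and CCT8 did not pass. CCT3 stood at 0.61 and 0.59 of the CCT2 level in NB4 controls and at 3.46 and 3.54 in MM6 controls. With the hairpin the ratio was 0.64 in both NB4 libraries and 3.32 and 3.59 in MM6. The 7 subunit genes summed to 1272 and 1286 RPKM in NB4 controls and to 920 and 1120 in MM6 controls. Not all of the 47 control differences held when a control library was left out. Without either NB4 control library fewer members, and fewer of all genes, were called.

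**Figure D5:**
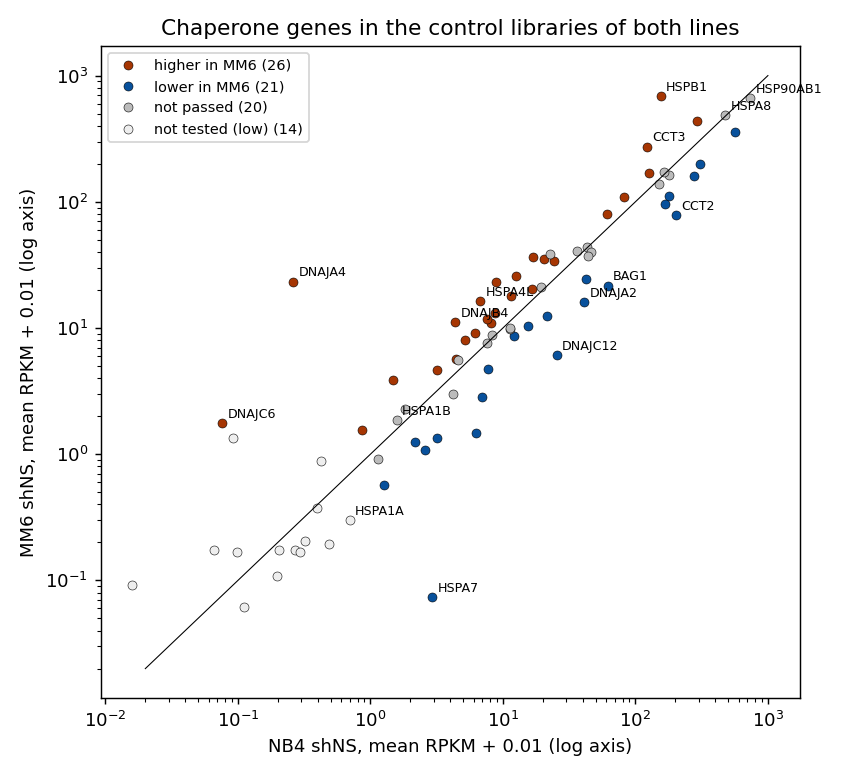
Mean RPKM + 0.01 of each of the 81 members in NB4 controls (horizontal) and MM6 controls (vertical), both axes log, coloured by the limma call; the line marks equal levels. DNAJA4, DNAJC6 and HSPB1 lie above the line, HSPA7, DNAJC12 and CCT2 below it, and HSPA8 on it.

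Co-chaperones and related genes outside the naming rule were read from a list of 35, of which 34 were tested. The list is mixed: HSF1, HSF2, CLPB, CLPP, CLPX, LONP1, TRAP1 and TCP1 are on it and are not co-chaperones. In NB4 14 of this mixed list rose, CLPB and CLPP among them, and 3 fell, against 22.1% and 25.2% of all genes. The median was 0.15 against -0.01. In MM6 none passed, and the median was 0.01 against -0.03. FKBP5, an HSP90 partner of steroid receptors, rose in NB4 by 0.50 (SE 0.04, limma adjusted p = 0.0014). PTGES3 (p23), which closes the HSP90 cycle, had 181 and 173 RPKM in NB4 controls and 123 and 122 with the hairpin, and 161 and 181 against 91.3 and 99.5 RPKM in MM6. It fell by 0.52 in NB4 and, over both lines, by 0.68 (SE 0.09, limma adjusted p = 0.0047), opposite to the HSP90 genes of NB4. The iron-sulphur J protein HSCB and the CDC37 relative CDC37L1 fell in NB4 by 0.38 and 0.39. In MM6 alone PTGES3 (-0.83, limma adjusted p = 0.11), the ubiquitin ligase STUB1 (-0.37), the HSF1-binding protein HSBP1 (0.28) and the prefoldin subunit PFDN2 (0.26) had the smallest p-values. The list of the 6 endoplasmic reticulum genes left out by the rule plus HSP90B1 had 5 of 7 higher in NB4 and none lower (against 22.1% and 25.2% of all genes), with HSPA5 at 89.9 and 95.3 against 131 in each knockdown library (0.50, SE 0.05).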

How the data were processed

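Directional libraries of poly(A) RNA, each from 100 ng of total RNA, were read single-end to 50 bp, per the labels. What aligner, counter, genome build, strand setting and test the authors used is not given in the sources used here. Deposited RPKM values of each library, made by the authors, were the values tested. The authors also deposited the signal (size-factor scaled group means of reads), the ratio or fold change, its log2 and the p-value with its adjustment, per the file headers. RPKM and group means resolved into whole reads for 100% of values within 0.01, which gave the depth. The gene model length was the same in both tables for all 16409 genes where it could be recovered in both, so levels were compared across tables.

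Genes that reached 1 RPKM in 2 or more of the fitted libraries were analysed as log2(RPKM + 1) with limma 3.58.1 in R 4.3.3 (empirical Bayes, Benjamini-Hochberg threshold 0.05). Each line was fitted alone, 2 libraries against 2. An additive model (line and hairpin) and an interaction (MM6 minus NB4) used all 8 libraries, and the control groups were compared with each other. The code was tested on simulated data. Named genes were 25 fixed core members, up to 4 members of smallest p per class and comparison, and the 3 largest rises and falls per comparison; members singled out outside this rule (carriers of a promoter element, and others given to complete a class) and TCP1 were chosen with values known. Members and lists were chosen with earlier results of these data known. Alternatives were a pseudocount of 0.1, no filter, RPKM of at least 5, a replicate block, voom on recovered reads, median-of-ratios scaling, all 8 libraries in 1 model, leaving out each library and, added after the values were seen, a variance trend. Promoters came from RefSeq (GRCh38.p14), and shared 50-base stretches and exon lengths from GENCODE release 29. Reads of paralogs, pseudogenes and antisense genes may be misassigned. Other software was pandas 2.3.3, numpy 2.4.6 and matplotlib 3.10.9 under Python 3.11.15.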

Additional observations from a re-analysis of the deposited data

Results flagged for a closer look

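DNAJB2 and DNAJB6 changed differently in the 2 lines by the interaction test. The MM6 change minus the NB4 change was 1.01 for DNAJB2 (limma adjusted p = 0.012), which was lower with the hairpin in both NB4 libraries and higher in both MM6 libraries than in every control library of the line. It was -0.55 for DNAJB6 (limma adjusted p = 0.048), which was higher with the hairpin in NB4 and lower in MM6, without overlap in either line. Over the alternatives that kept all libraries and tested the gene, the limma adjusted p was 0.012 to 0.022 for DNAJB2 and 0.034 to 0.081 for DNAJB6. The DNAJB6 call was lost with a pseudocount of 0.1 and with median-of-ratios scaling.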

How the results depend on the processing

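Of the member counts, 20 higher and 12 lower in NB4 became 1 and 5 with all 8 libraries in 1 model, and 9 to 19 and 7 to 11 when a library was left out; under the other alternatives they stayed within 1.5 times. In MM6 the counts of 0 and 0 became 2 higher and 3 lower with all 8 libraries in 1 model. Among the 3 lower, HSPA12B reached the filter through the MM6 controls alone and is counted but given no test. Of all 12804 genes in that fit, 538 were higher and 773 lower in MM6. Over both lines, 3 higher became 0 to 3 and 1 lower became 1 to 3 when a library was left out, and 1 lower became 3 with voom and 2 with median-of-ratios scaling. Of the difference between lines, 1 higher became 0 at an RPKM of at least 5, where DNAJB2 was not tested, and 0 to 2 when a library was left out; 1 lower became 0 with a pseudocount of 0.1, 2 with no filter, with voom and with a variance trend, and 0 to 3 when a library was left out. Control differences went from 26 higher to 13 to 29 and from 21 lower to 14 to 27 when a library was left out. The counts over all genes also shifted with the library left out. No member changed from a call in one direction to a call in the other. Leaving out a library leaves 1 library in an arm, which is then assumed to vary like the others, and fewer residual degrees of freedom; the cause of other shifts was not tested.

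The labels number replicates 1 and 2 without saying that a number marks a shared batch, so the samples share only a number. Same-numbered libraries deviated together in MM6 (correlation 0.69 across 12804 genes) and hardly in NB4 (0.07). With the replicate block, MM6 had 2 members higher (DNAJB2, limma adjusted p = 0.021, and DNAJC5, 0.032) and 2 lower (DNAJB4, 0.034, and HSPA12B). HSPA12B reached the filter through the controls alone, so it is counted but given no test. That fit tested 64 members, and of all 11895 genes it called 595 higher and 810 lower. The block moved the difference between lines to 2 higher (DNAJB2 and CCT6B) and 5 lower (DNAJB6, HSPH1, DNAJB5, HSP90AA1 and HSPE1), left the NB4 counts at 20 and 11, and took HSPA9 out of the calls common to both lines (limma adjusted p = 0.052). Over all genes, the block fit of the difference called 582 higher and 561 lower of 12804. The block fit of NB4 called 2433 higher and 2808 lower of 11531. Depth limits the rare members: HSPA7 had 3 and 5 reads in MM6 controls and DNAJA4 16 and 31 in NB4 controls.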
